A study of Mus musculus with 12 samples.

Results

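The heterochromatin and H3K9 methylation genes described here are 10 genes taken by symbol from a gene count matrix of 55487 genes: Cbx1, Cbx3, Cbx5, Suv39h1, Suv39h2, Setdb1, Trim28, Ehmt1, Ehmt2 and Atrx. RNA-seq of female mouse embryonic stem (ES) cells, C57BL6/CAST hybrids whose maternal and paternal chromosomes differ at many bases, was made in 4 groups of 3 libraries. The groups were SIRT7-KO cells at day 7 after withdrawal of LIF (leukaemia inhibitory factor, which keeps ES cells undifferentiated), wild type (WT) cells at day 7, SIRT7-KO cells at day 0 with LIF, and WT cells at day 0. Days come from the sample titles; a separate treatment label did not follow them, reading LIF for 2 of 3 SIRT7-KO and 1 of 3 WT libraries at day 7 and again at day 0, and no treatment for the others. The labels name no clone, culture or animal behind a replicate number, so p-values measure the spread between these libraries, which may be technical, and 1 knockout clone cannot be told apart from knockout in general. All 10 genes passed the filter on low counts that left 19235 genes for testing.

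In heterochromatin, histone H3 carries methyl groups on lysine 9 (H3K9). SUV39H1 and SUV39H2 place the trimethyl mark at pericentromeric repeats, SETDB1 places it at retrotransposons where zinc finger proteins recruit it through TRIM28 (KAP1), and the EHMT1-EHMT2 pair (GLP and G9a) places the dimethyl mark along chromosome arms. The HP1 proteins, encoded by Cbx1, Cbx3 and Cbx5, bind methylated H3K9 through their chromodomains, and ATRX is a chromatin remodeller that acts with DAXX to deposit histone H3.3 in such regions. SIRT7 is a deacetylase of the sirtuin family found mainly in the nucleolus.

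The labels were first set against the targeted gene. Sirt7 ran from 20.1 to 25.1 CPM (counts scaled to a common library size) in the knockout-labelled libraries of day 7, from 10.2 to 15.3 in WT at day 7, from 16.9 to 23.8 in the knockout-labelled libraries of day 0 and from 8.03 to 12.7 in WT at day 0. It was thus higher in the libraries labelled knockout, and every genotype direction below rests on the labels alone. Library totals ran from 25190483 to 69079368 counts. The summed level of 7 naive ES markers ran from 206 to 235 CPM over the day 7 libraries and from 6315 to 6831 CPM over those of day 0, and all 7 fell in both genotypes. Of 6 mesoderm markers 5 rose in each genotype, as did 5 of 5 endoderm, 4 of 5 tested trophoblast and 5 of 6 fibroblast markers (the remaining one of each of the last 2 lists fell), while 3 of 5 tested neural markers fell and 1 rose. These are bulk libraries, in which fewer cells of a type and less RNA per cell cannot be told apart, and the part of the changing cell mixture in the day comparisons was not tested.

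In gene counts over the 7 days, Suv39h1 and Ehmt1 rose and Trim28, Cbx1 and Ehmt2 fell in both genotypes. Suv39h1 had the largest change of the 10 genes and Trim28 the largest fall. In the libraries labelled knockout, 2 genes rose and 3 fell at an adjusted p of at most 0.05 (edgeR's quasi-likelihood test, Benjamini-Hochberg over all genes). In WT, 4 rose and 3 fell, with Suv39h2 and Cbx5 passing as well; the difference between genotypes in these 2 changes did not itself pass (log2 -0.24 and -0.08, adjusted p = 0.913 and 0.951 by edgeR). Of all genes tested, 31.1% rose and 32.3% fell in the libraries labelled knockout, and 32.9% rose and 32.1% fell in WT. The share of members called was thus near the background. The median log2 change of the 10 genes was 0.07 in the libraries labelled knockout and 0.20 in WT; over all genes it was -0.02 in the libraries labelled knockout and 0.01 in WT.

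**Figure D1:**
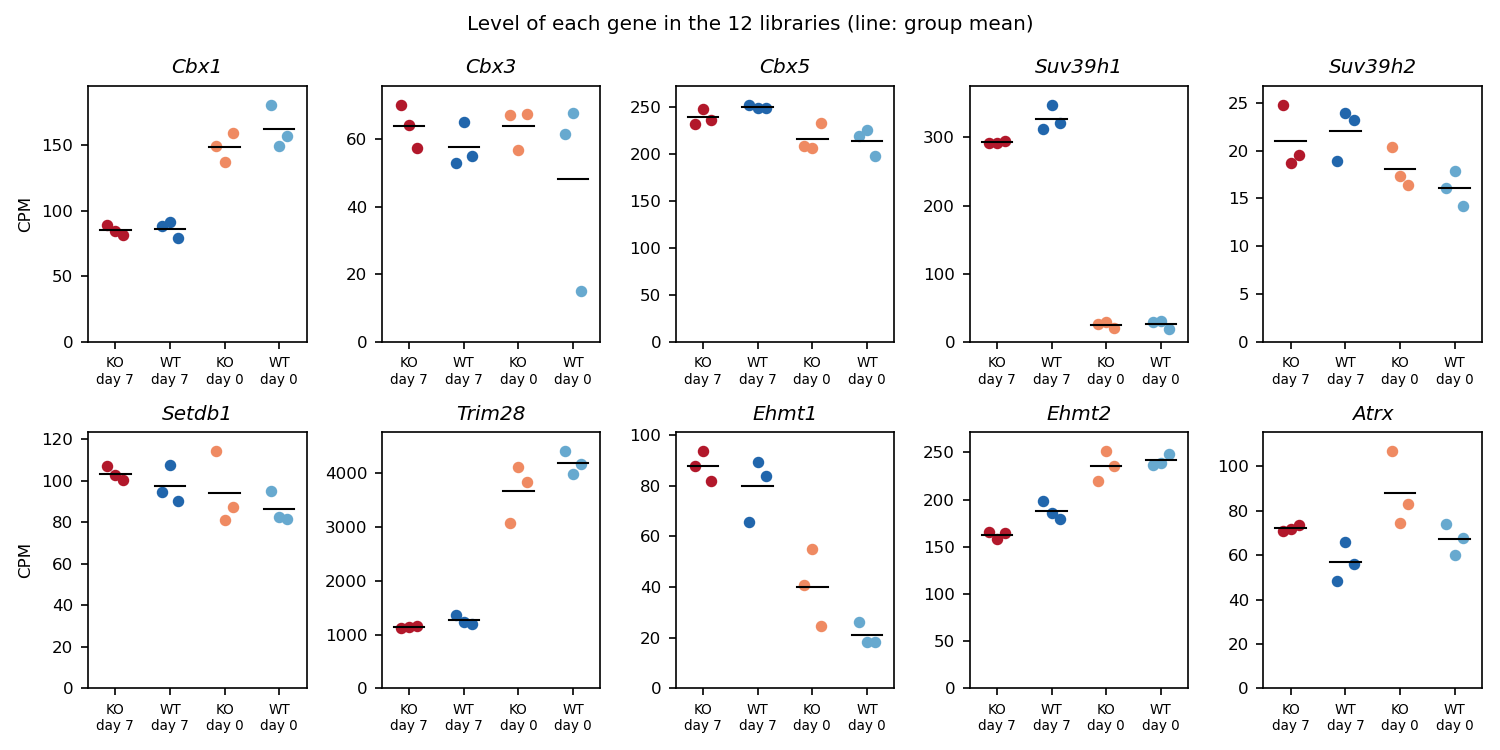
Level of each of the 10 genes in CPM (y axis, from 0) in the 3 libraries of each group (points) with the group mean (line); KO means labelled knockout. Suv39h1 and Ehmt1 sit higher at day 7, Trim28, Cbx1 and Ehmt2 lower, and the WT library of day 0 at 15.1 CPM stands apart for Cbx3.

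Suv39h1 (chromosome X, 8061171 to 8074760, minus strand, GRCm38), which encodes a methyltransferase of pericentromeric H3K9, had 292, 292 and 295 CPM in the knockout-labelled libraries of day 7 and 313, 348 and 321 CPM in WT at day 7. At day 0 it had 25.8, 29.2 and 20.2 CPM in the libraries labelled knockout and 29.4, 30.0 and 19.1 CPM in WT. The days did not overlap in either genotype. The log2 change was 3.55 (SE 0.18, adjusted p = 2.09e-08 by edgeR) in the libraries labelled knockout, an 11.7-fold rise, and 3.64 (SE 0.18, adjusted p = 1.68e-08) in WT, a 12.5-fold rise. On a scale per transcript length (TPM), Suv39h1 was the eighth of the 10 genes in the libraries labelled knockout and the seventh in WT at day 0, and the second in both at day 7, when it averaged 186 ± 1.10 TPM in the libraries labelled knockout and 194 ± 15.3 TPM in WT (SD, n = 3 each).

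Most of the day 7 reads were given to 1 of 5 annotated transcripts. Suv39h1-202, a protein-coding form of 2778 bases that starts at 8074258, had 269, 269.6 and 269 CPM in the knockout-labelled libraries of day 7 and 296, 326 and 287 CPM in WT at day 7. At day 0 it had 10.7, 0 and 0 CPM in the libraries labelled knockout and 0, 13.9 and 0 CPM in WT. It made up 92.0% of the gene's reads at day 7 in the libraries labelled knockout and 92.5% in WT, against 13.9% (knockout-labelled) and 15.4% (WT) at day 0. Suv39h1-205, a form annotated as intron-retaining, ran from 13.3 to 17.3 CPM in the knockout-labelled and from 9.87 to 23.8 CPM in the WT libraries of day 7, and from 0 to 10.2 (knockout-labelled) and from 0.683 to 14.0 CPM (WT) at day 0. Suv39h1-204, another such form, averaged 1.06 ± 0.47 CPM in the knockout-labelled and 2.08 ± 1.03 CPM in the WT libraries of day 7, and 9.17 ± 1.64 (knockout-labelled) and 9.97 ± 2.78 CPM (WT) at day 0 (SD, n = 3 each). Transcript levels are StringTie estimates that divide shared exons between forms, and no test was run on them. RefSeq gives Suv39h1 a pair of start sites, at 8074760 and 8074361, both upstream of that of Suv39h1-202. Their promoters (RefSeq, GRCm38.p6, minus strand, chrX:8074711-8075010 and chrX:8074312-8074611), shown as those of the member with the largest rise, read as follows. Neither window holds the start of Suv39h1-202. Capitals mark CCAAT (or its complement ATTGG) and GGGCGG (or CCGCCC), searched on both strands.
Suv39h1 upstream promoter: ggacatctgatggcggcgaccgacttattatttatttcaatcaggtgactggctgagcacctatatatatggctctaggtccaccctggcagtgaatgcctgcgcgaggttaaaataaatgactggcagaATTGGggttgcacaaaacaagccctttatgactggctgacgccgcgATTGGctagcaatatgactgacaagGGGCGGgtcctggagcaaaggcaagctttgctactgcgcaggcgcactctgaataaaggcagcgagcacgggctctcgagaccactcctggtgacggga
Suv39h1 downstream promoter: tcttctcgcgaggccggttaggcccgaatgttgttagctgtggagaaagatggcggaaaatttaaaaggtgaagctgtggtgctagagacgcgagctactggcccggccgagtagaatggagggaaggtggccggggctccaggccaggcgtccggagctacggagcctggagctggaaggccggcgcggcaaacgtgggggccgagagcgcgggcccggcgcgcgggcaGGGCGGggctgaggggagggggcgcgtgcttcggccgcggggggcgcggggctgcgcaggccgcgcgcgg
The upstream promoter holds 2 CCAAT matches, 1 GGGCGG match and 15 CpG dinucleotides, and the downstream one holds no CCAAT match, 1 GGGCGG match and 37 CpG. CCAAT occurs in 37.4% and GGGCGG in 35.7% of the 32851 promoters in the table, whose median CpG number is 7. TATAAA, present in 13.6% of all promoters, is in none of the 14 promoter windows of the 10 genes, 4 of which hold CCAAT and 12 GGGCGG. These matches describe letters and not bound sites.

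An antisense gene overlaps Suv39h1. Gm14820 (chromosome X, 8042943 to 8074619, plus strand) shares 767 exon bases with Suv39h1, 14.6% of all exon bases of Suv39h1, and whether strand was used in counting is not given in the sources used here. It ran from 0.0645 to 0.233 CPM in the knockout-labelled libraries of day 7 and from 0.0594 to 0.271 CPM in WT at day 7, against 51.4 to 62.5 CPM in the libraries labelled knockout and 56.0 to 62.5 CPM in WT at day 0. Each day 7 library was thus above each day 0 library for Suv39h1 and below it for Gm14820. Counted as 1 gene, they averaged 293 ± 1.76 CPM in the knockout-labelled and 327 ± 18.2 CPM in the WT libraries at day 7, and 82.2 ± 10.1 (knockout-labelled) and 85.3 ± 9.0 CPM (WT) at day 0 (SD, n = 3 each). With the counts added, an alternative chosen after the data were seen, the log2 change was 1.83 in the libraries labelled knockout (adjusted p = 4.42e-08 by edgeR) and 1.94 in WT (adjusted p = 2.7e-08). Without strand, reads of the shared bases cannot be told apart, and how they were divided at day 0 was not tested.

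**Figure D2:**
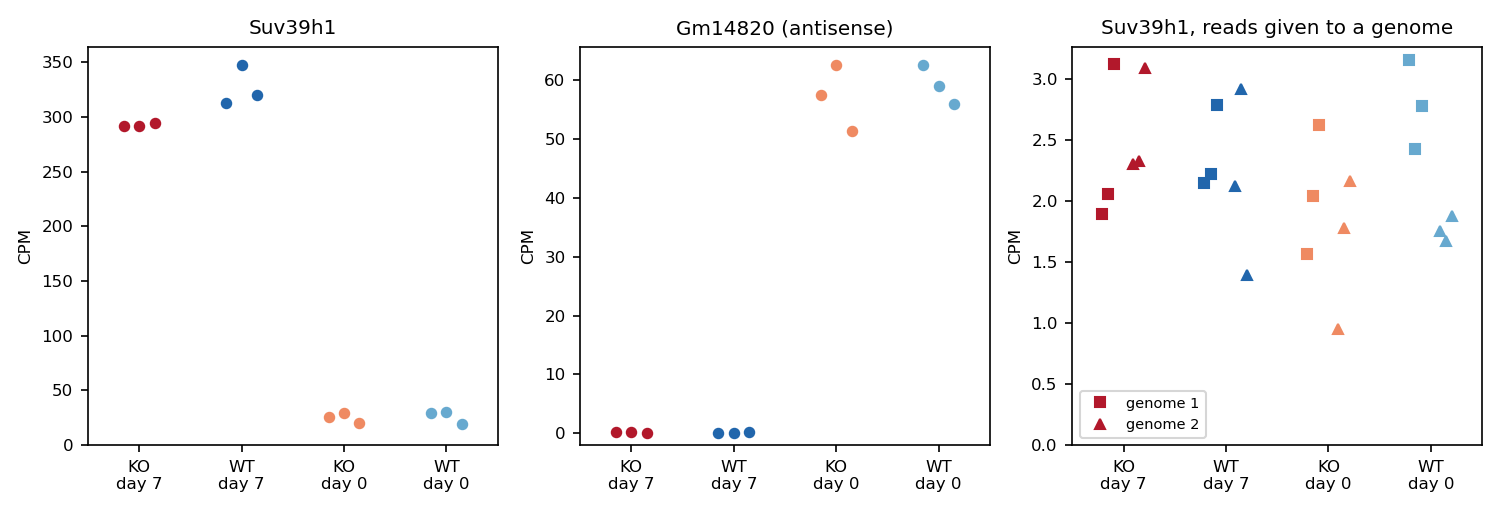
CPM (y axes) of Suv39h1, of its antisense gene Gm14820, and of the Suv39h1 reads given to genome 1 (squares) or genome 2 (triangles), 1 point per library; KO means labelled knockout. Suv39h1 is at 292 CPM or more in all day 7 libraries, where Gm14820 is at 0.271 CPM or less, while the genome 1 and genome 2 reads of both days cover overlapping ranges.

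Among the reads that can be given to a parental genome, the change did not pass. Reads were divided by the authors into genome 1, genome 2 and unassigned; which strain each genome is was not given. Of the Suv39h1 reads, 2.14% could be given to a genome at day 7 in the libraries labelled knockout and 1.78% in WT, against 14.0% (knockout-labelled) and 17.0% (WT) at day 0. In CPM, these resolved reads averaged 4.94 ± 1.12 in the knockout-labelled and 4.54 ± 0.53 in the WT libraries of day 7, and 3.71 ± 1.14 (knockout-labelled) and 4.56 ± 0.42 (WT) at day 0 (SD, n = 3 each). All 19983 reads of Suv39h1-202 in the knockout-labelled libraries of day 7, and all 30928 in WT, were unassigned. Tested on resolved reads alone, the log2 change was 0.36 in the libraries labelled knockout (adjusted p = 0.266 by edgeR) and -0.06 in WT (adjusted p = 0.856).

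The genome 2 share of resolved Suv39h1 reads was 54.9%, 53.1% and 49.7% in the knockout-labelled and 49.7%, 56.8% and 33.3% in the WT libraries of day 7. At day 0 it was 37.8%, 46.5% and 45.2% in the knockout-labelled and 35.8%, 40.8% and 40.3% in the WT libraries of day 0. These shares rest on 74 to 347 reads each. The balance did not pass the test between days in the libraries labelled knockout (log2 change of genome 2 over genome 1 0.54, SE 0.39, adjusted p = 0.795 by edgeR) or in WT (0.46, SE 0.39, adjusted p = 0.808). Over the same days the median share of 287 X-linked genes was 97.5% in the knockout-labelled and 96.0% in the WT libraries of day 7, against 52.0% (knockout-labelled) and 52.8% (WT) at day 0. Of these, 67.9% passed the test of allelic balance in the libraries labelled knockout and 67.9% in WT, compared with 2.99% (knockout-labelled) and 3.67% (WT) of all 9344 genes tested. Within 1000 kb of Suv39h1, 15 of 24 other tested genes passed in each genotype. Within the same distance of Atrx, described next, 2 of 5 did. The pooled Suv39h1 share mixes transcripts that differ: at day 7 Suv39h1-201 had 49 genome 1 and 234 genome 2 reads in the libraries labelled knockout and 89 genome 1 and 297 genome 2 reads in WT, while Suv39h1-203 had 182 genome 1 and 20 genome 2 reads in the libraries labelled knockout and 226 genome 1 and 28 genome 2 reads in WT. At day 0 Suv39h1-201 had 152 genome 1 and 117 genome 2 reads (knockout-labelled) and 159 and 141 (WT). Suv39h1-203 then had 57 genome 1 and 48 genome 2 reads (knockout-labelled) and 99 and 27 (WT). The genome 2 share thus rose for Suv39h1-201 and fell for Suv39h1-203 in both genotypes. The balance of single transcripts was not tested.

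Atrx (chromosome X, 105797615 to 105929403, minus strand), the remodeller gene, went to nearly 1 genome over the 7 days, while its total level did not pass the test. It had 70.9, 71.8 and 73.4 CPM in the knockout-labelled and 48.4, 66.1 and 56.1 CPM in the WT libraries of day 7. Its day 0 levels were 107, 74.6 and 83.1 CPM in the knockout-labelled and 73.9, 60.0 and 68.0 CPM in the WT libraries of day 0. The log2 change of the level was -0.29 in the libraries labelled knockout (SE 0.15, adjusted p = 0.101 by edgeR) and -0.24 in WT (SE 0.15, adjusted p = 0.164), neither of which passed; without the second knockout-labelled library of day 0 the first was -0.40 and passed (adjusted p = 0.0408). The genome 2 share was 97.0%, 96.6% and 98.7% in the knockout-labelled and 95.4%, 97.5% and 98.9% in the WT libraries of day 7. At day 0 the share was 60.8%, 53.6% and 53.3% in the knockout-labelled and 63.4%, 48.0% and 63.3% in the WT libraries of day 0. The days were far apart in both genotypes. The log2 change of genome 2 over genome 1 was 4.92 in the libraries labelled knockout (SE 0.54, adjusted p = 0.000577 by edgeR) and 4.76 in WT (SE 0.53, adjusted p = 0.000709). In the libraries labelled knockout, genome 1 reads averaged 0.308 ± 0.155 CPM at day 7 and 8.37 ± 2.84 CPM at day 0, and genome 2 reads averaged 11.4 ± 1.53 CPM at day 7 and 10.8 ± 4.36 CPM at day 0 (SD, n = 3 each). In WT, genome 1 reads averaged 0.270 ± 0.134 CPM at day 7 and 5.61 ± 1.62 CPM at day 0. Genome 2 reads of WT averaged 10.8 ± 3.16 CPM at day 7 and 8.06 ± 3.43 CPM at day 0 (SD, n = 3 each). Xist, the RNA that coats the inactive X chromosome, ran from 416 to 441 CPM in the knockout-labelled and from 338 to 389.6 CPM in the WT libraries of day 7, against 37.5 to 44.3 (knockout-labelled) and 29.6 to 41.0 CPM (WT) at day 0.

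**Figure D3:**
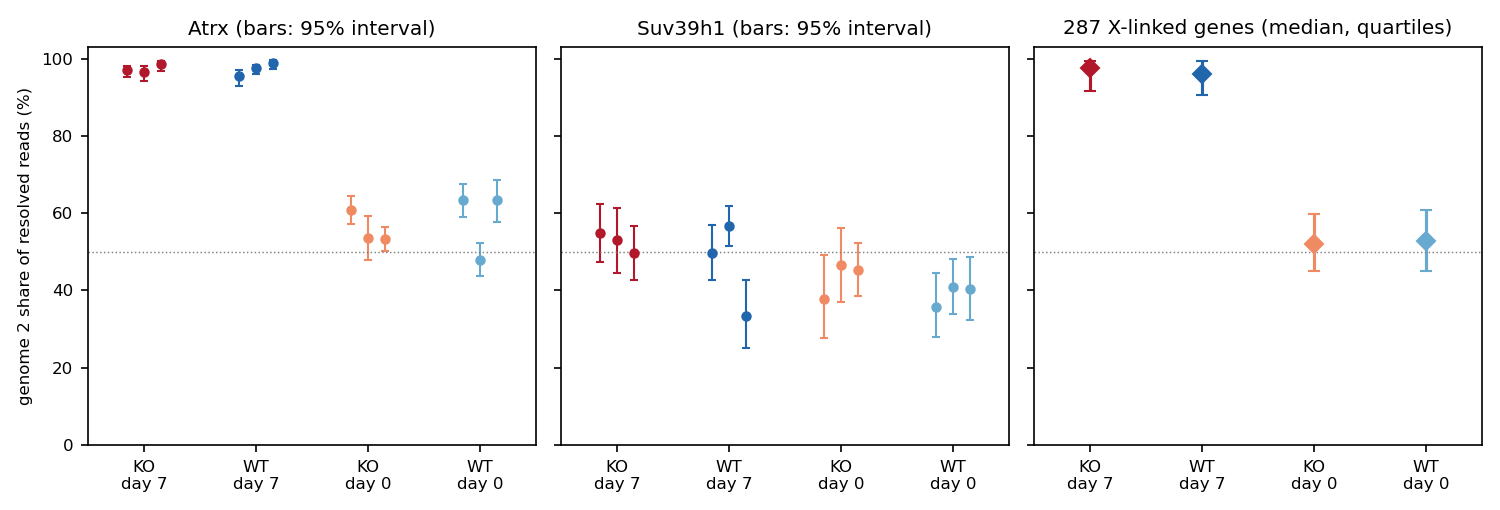
Genome 2 share of the reads that could be given to a genome (y axis, percent), per library with 95% Wilson intervals for Atrx and Suv39h1, and as the median with quartiles over 287 X-linked genes; KO means labelled knockout. Atrx lies between 95.4% and 98.9% at day 7, while Suv39h1 lies between 33.3% and 56.8%.

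Among the 7 members with over 3 reads of each genome in every group, Atrx was the only one whose balance passed between days in the libraries labelled knockout; in WT Trim28 passed too (log2 change 1.70, SE 0.40, adjusted p = 0.0459 by edgeR), a call lost without any 1 of 10 of the 12 libraries. Trim28 reads were almost all of genome 1, with a mean genome 2 share of 0.506% in the knockout-labelled and 0.610% in the WT libraries of day 7, against 0.326% (knockout-labelled) and 0.206% (WT) at day 0. Cbx3, Cbx5 and Ehmt2 likewise had under 5% genome 2 reads in every library, so neither their balance nor that of Trim28 was interpreted. In every library most resolved reads of all genes were also of genome 1. The first knockout-labelled library of day 0 had 6209714 genome 1 and 2335127 genome 2 reads. Whether these low shares come from the cells or from how reads were assigned was not tested. Between genotypes no member passed at either day, where 0.0321% of all genes did at day 7 and 0.0% at day 0; the smallest unadjusted p of a member was 0.168 at day 7 and 0.0765 at day 0.

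Trim28 (chromosome 7, 12999114 to 13031035, plus strand), the corepressor that links KRAB zinc finger proteins to SETDB1, had 1115, 1149 and 1158 CPM in the knockout-labelled and 1371, 1239 and 1194 CPM in the WT libraries of day 7. Its day 0 values were 3078, 4107 and 3834 CPM in the knockout-labelled and 4406, 3988 and 4169 CPM in the WT libraries of day 0. Each day 7 library was below each day 0 library. Its log2 change was -1.69 in the libraries labelled knockout (SE 0.10, adjusted p = 6.34e-08 by edgeR) and -1.72 in WT (SE 0.10, adjusted p = 5.08e-08). Trim28 remained the member with the highest level per length in every group, at 653 ± 18.1 TPM in the knockout-labelled and 671 ± 27.8 TPM in the WT libraries of day 7, and 1574 ± 119 (knockout-labelled) and 1723 ± 138 TPM (WT) at day 0 (SD, n = 3 each). Its promoter (RefSeq, GRCm38.p6, plus strand, chr7:13023902-13024201) is shown as that of the member with the largest fall, with the same motifs in capitals.
Trim28 promoter: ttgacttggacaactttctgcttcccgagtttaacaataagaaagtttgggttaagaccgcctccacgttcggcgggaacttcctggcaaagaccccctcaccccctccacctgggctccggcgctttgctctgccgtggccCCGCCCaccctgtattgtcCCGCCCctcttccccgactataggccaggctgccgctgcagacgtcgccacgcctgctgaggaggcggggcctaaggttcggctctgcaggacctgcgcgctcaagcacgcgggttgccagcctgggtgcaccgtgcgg
It holds 2 GGGCGG matches, both as the complement, no CCAAT match and 23 CpG dinucleotides. Setdb1 (chromosome 3, 95323525 to 95357202, minus strand), the methyltransferase itself, ran from 100.4 to 107 CPM in the knockout-labelled and from 90.2 to 107 CPM in the WT libraries of day 7, and from 81.2 to 114 (knockout-labelled) and from 81.3 to 95.2 CPM (WT) at day 0. Its log2 change of 0.13 in the libraries labelled knockout and 0.17 in WT did not pass (SE 0.12 each), though without the first library labelled knockout of day 0 the first was 0.31 and passed (adjusted p = 0.0105 by edgeR). A form annotated as intron-retaining, Setdb1-204, took 37.8% of its reads in the knockout-labelled and 72.4% in the WT libraries of day 7, and 72.8% (knockout-labelled) and 88.8% (WT) at day 0.

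**Figure D4:**
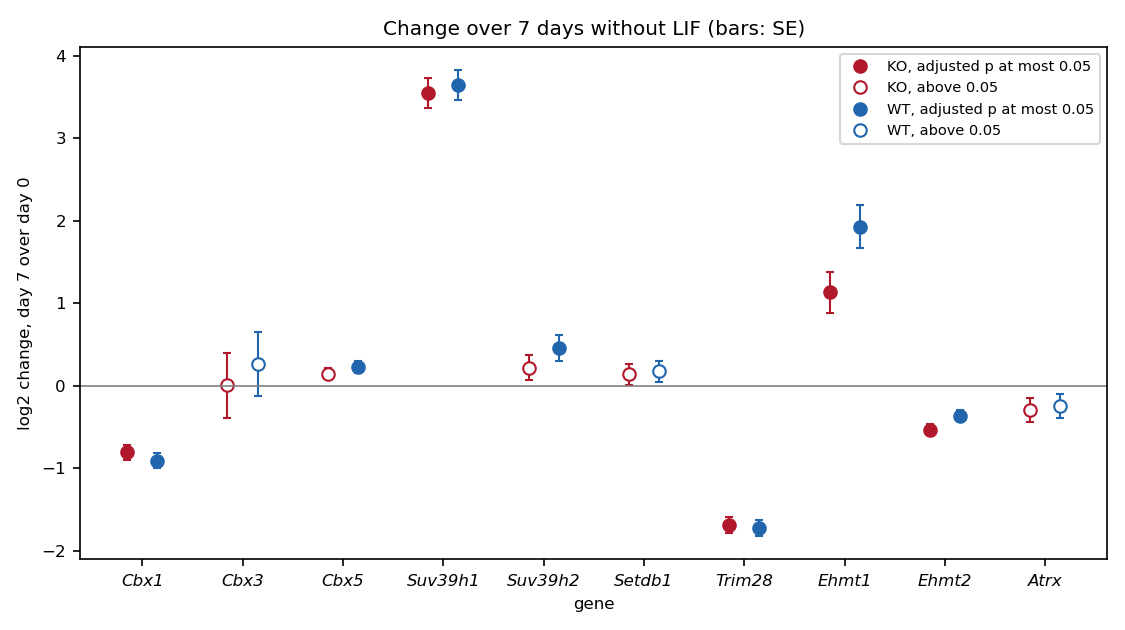
Log2 change of each gene's level at day 7 over day 0 (y axis) in the libraries labelled knockout (red) and in WT (blue), with SE as bars; filled points passed an adjusted p of 0.05. The 5 genes filled in both colours are Suv39h1 and Ehmt1, above 0, and Trim28, Cbx1 and Ehmt2, below 0.

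Ehmt1 and Ehmt2, whose products form 1 dimethyltransferase complex, moved in opposite directions in gene counts, though not per length. Ehmt1 (chromosome 2, 24789928 to 24919614, minus strand) had 87.8, 93.6 and 81.9 CPM in the knockout-labelled and 65.9, 89.4 and 84.0 CPM in the WT libraries of day 7. Values at day 0 were 40.7, 55.2 and 24.5 CPM in the knockout-labelled and 26.2, 18.4 and 18.5 CPM in the WT libraries of day 0. Day 7 was above day 0 in each library of either genotype, and the genotypes overlapped at both days. It rose by a log2 change of 1.13 in the libraries labelled knockout (SE 0.25, adjusted p = 0.00222 by edgeR) and 1.93 in WT (SE 0.26, adjusted p = 5.38e-05). The difference between these changes was -0.80 (SE 0.35), with an unadjusted p of 0.0456 and an adjusted p of 0.719 by edgeR, and did not pass. Ehmt2 (chromosome 17, 34898469 to 34914052, plus strand) had 166, 158 and 164 CPM in the knockout-labelled and 198, 185 and 179.5 CPM in the WT libraries of day 7. The values of day 0 were 219.6, 251 and 236 CPM in the knockout-labelled and 237, 239 and 248 CPM in the WT libraries of day 0. It fell by 0.53 on the log2 scale in the libraries labelled knockout (SE 0.07, adjusted p = 2.94e-05 by edgeR) and by 0.36 in WT (SE 0.07, adjusted p = 0.000521). Per length Ehmt2 did not show this fall, and the days overlapped in both genotypes. It averaged 101 ± 5.09 TPM in the knockout-labelled and 105 ± 12.1 TPM in the WT libraries of day 7. At day 0 it averaged 106 ± 16.3 (knockout-labelled) and 101 ± 14.4 TPM (WT) (SD, n = 3 each). No test was run on TPM. The Ehmt1 transcript estimates were unstable among replicates: Ehmt1-202 had 79.3, 0 and 61.1 CPM in the knockout-labelled and 0, 74.0 and 69.1 CPM in the WT libraries of day 7, and 0 in each day 0 library. The allele-divided counts of Ehmt1 summed to between 0.408 and 1.62 times its whole-gene count in a library, so its counts depend on the table used.

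Of the HP1 genes, Cbx1 (HP1 beta; chromosome 11, 96789127 to 96808640, plus strand) fell in both genotypes and Cbx5 rose in WT, while Cbx3 did not pass in either; the results for Cbx5 and Cbx3 in WT depended on which reads were counted. Cbx1 had 88.8, 84.2 and 81.6 CPM in the knockout-labelled and 88.1, 91.7 and 78.9 CPM in the WT libraries of day 7. Day 0 gave 149, 137 and 159 CPM in the knockout-labelled and 181, 149.6 and 157 CPM in the WT libraries of day 0. The log2 change was -0.81 in the libraries labelled knockout (SE 0.09, adjusted p = 1.56e-05 by edgeR) and -0.91 in WT (SE 0.09, adjusted p = 5.66e-06), with no overlap between days. Cbx5 (HP1 alpha; chromosome 15, 103191544 to 103239816, minus strand) had 232, 248 and 236 CPM in the knockout-labelled and 252, 249 and 249 CPM in the WT libraries of day 7. Day 0 values were 209, 207 and 233 CPM in the knockout-labelled and 219, 225 and 198 CPM in the WT libraries of day 0. The days overlapped in the libraries labelled knockout, where the log2 change of 0.15 (SE 0.07, adjusted p = 0.0848 by edgeR) did not pass (without the third such library of day 0 it was 0.20 and passed, adjusted p = 0.0296), and were apart in WT, where Cbx5 rose by 0.22 (SE 0.07, adjusted p = 0.0135); without the third WT library of day 0 this call was lost (0.17, adjusted p = 0.0599). On resolved reads alone the WT change of Cbx5 was 0.26 and did not pass (adjusted p = 0.176 by edgeR).

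Cbx3 (HP1 gamma; chromosome 6, 51470360 to 51483704, plus strand) ran from 57.2 to 70.1 CPM in the knockout-labelled and from 53.0 to 65.2 CPM in the WT libraries of day 7, and from 56.6 to 67.5 CPM in the knockout-labelled libraries of day 0. In WT at day 0 it had 61.5, 67.7 and 15.1 CPM. In the library at 15.1 CPM the allele-divided counts of Cbx3 summed to 4.06 times its whole-gene count, while in the other libraries this ratio ran from 0.671 to 1.0. The log2 change of 0.00 in the libraries labelled knockout and 0.26 in WT (SE 0.39 each) did not pass, and the WT value was -0.16 without that library. On resolved reads alone Cbx3 passed in WT, with a log2 change of 1.52 (adjusted p = 0.0125 by edgeR). It was at 0.70 in the libraries labelled knockout (adjusted p = 0.197 by edgeR). The share of Cbx3 reads that could be given to a genome was itself higher on average at day 7. In WT this share averaged 31.1% at day 7 and 12.6% at day 0, where 1 library had only 83 such reads. In the libraries labelled knockout the share averaged 31.6% at day 7 and 22.7% at day 0. With the allele-divided counts summed, unassigned reads included, the WT change was 0.10 (adjusted p = 0.634 by edgeR). In the library at 15.1 CPM the 8 Cbx3 pseudogenes summed to 13.9 CPM, within the 11.1 to 21.3 CPM of the other libraries. Suv39h2 (chromosome 2, 3455815 to 3475031, minus strand), the second SUV39H enzyme, was the lowest member per length at day 7, at 13.2 ± 2.65 TPM in the libraries labelled knockout and 12.1 ± 3.54 TPM in WT (SD, n = 3 each), where its libraries overlapped those of Atrx. It had 24.8, 18.7 and 19.5 CPM in the knockout-labelled and 18.9, 24.0 and 23.2 CPM in the WT libraries of day 7. Its levels at day 0 were 20.4, 17.4 and 16.4 CPM in the knockout-labelled and 16.1, 17.8 and 14.2 CPM in the WT libraries of day 0. It rose by 0.46 in WT (SE 0.15, adjusted p = 0.0223 by edgeR), a call lost without WT library 3 of day 0, or WT library 2 or 3 of day 7. The call was also lost with the allele-divided counts summed (0.35, adjusted p = 0.102 by edgeR) and on resolved reads alone (0.025, adjusted p = 0.954). Its change of 0.22 in the libraries labelled knockout (SE 0.15, adjusted p = 0.236) did not pass. Suv39h2 shares 357 exon bases with Dclre1c on the opposite strand, whose mean was 2.23 to 3.27 CPM over the groups.

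Between genotypes, none of the 10 genes passed at either day. At day 7 edgeR called 0 of 10, compared with 0.026% of all genes, and DESeq2 called 0, compared with 0.656%. An unadjusted edgeR p under 0.05 was found for 2 of 10 at day 7, compared with 8.18% of all genes. At day 0 edgeR called 0 of 10, compared with 0.13%, and DESeq2 called 1, compared with 1.95%. Such an unadjusted p was found for 2 of 10 at day 0, compared with 11.9%. That gene was Ehmt1, at 40.1 ± 15.3 CPM in the libraries labelled knockout and 21.0 ± 4.47 CPM in WT (SD, n = 3 each), with a log2 difference of 0.93 (SE 0.25) and an adjusted p of 0.227 by edgeR and 0.029 by DESeq2. Atrx was higher in each library labelled knockout than in each WT library of the same day. Its log2 difference was 0.34 at day 7 (SE 0.15, adjusted p = 0.579 by edgeR) and 0.39 at day 0 (SE 0.15, adjusted p = 0.332). Ehmt2 was lower in the libraries labelled knockout at day 7, by a log2 difference of -0.21 (SE 0.07, adjusted p = 0.478 by edgeR). The genotypes did not overlap for 5 of 10 genes at day 7 (Cbx5, Suv39h1, Trim28, Ehmt2 and Atrx), compared with 19.5% of all genes, and for 1 of 10 at day 0 (Atrx), compared with 15.7%. The summed levels of 4 of the 6 cell type marker lists also did not overlap between genotypes at day 7. They ran from 1047 to 1079 CPM in the libraries labelled knockout and from 1312 to 1507 CPM in WT for fibroblast markers, and from 1798 to 1851 CPM in the libraries labelled knockout and from 2101 to 2334 CPM in WT for mesoderm markers. Trophoblast markers ran from 3898 to 4053 CPM in the libraries labelled knockout and from 4413 to 5214 CPM in WT. Neural markers ran from 251 to 262 CPM in the libraries labelled knockout and from 212 to 244 CPM in WT. The log2 difference was above 0 for 0 of 6 fibroblast, 3 of 6 mesoderm, 1 of 5 trophoblast and 4 of 5 neural genes. None of these genes was called by edgeR. Most of the mesoderm sum was Hand1, at a mean of 1508 CPM in the libraries labelled knockout and 1945 CPM in WT. Col1a1 made up most of the fibroblast sum (mean 885 CPM knockout-labelled, 1176 CPM WT). Krt8 (2279 and 2611 CPM) and Krt18 (1564 and 2005 CPM) made up most of the trophoblast sum. Nes (171 and 150 CPM) and Tubb3 (84.7 and 72.1 CPM) made up most of the neural sum. These sums thus rest on few genes, and no background share was computed for them. At day 0, 4 of 7 naive ES markers were higher in the libraries labelled knockout. Of the 7, edgeR called 1, compared with 0.13% of all genes. Esrrb differed most, at a mean of 231 CPM in the libraries labelled knockout and 43.8 CPM in WT. The part of these marker levels in the differences of the 10 genes was not tested. No call was made for the difference between genotypes in the change over time, where edgeR called 0 of 10, compared with 0.026% of all genes, and DESeq2 called 0, compared with 0.672%. Here 1 of 10 had an unadjusted edgeR p under 0.05, compared with 6.86% of all genes.

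A wider list of 44 genes of H3K9 methylation and its readers, 43 of which were tested, moved in both directions. In the libraries labelled knockout 16 rose and 17 fell over the 7 days, with a median log2 change of 0.16, and in WT 20 rose and 16 fell, with a median of 0.30. The shares over all genes, which are the background for this list and for its groups below, were 31.1% rising and 32.3% falling in the libraries labelled knockout and 32.9% rising and 32.1% falling in WT, with medians of -0.02 (knockout-labelled) and 0.01 (WT). Among the partners of SETDB1 and TRIM28, 5 of 7 fell and 1 rose in the libraries labelled knockout, and 5 of 7 fell and 2 rose in WT. The largest fall of these was that of Zfp57, a KRAB zinc finger gene that keeps imprints, at 44.1 ± 29.2 CPM in the knockout-labelled and 22.9 ± 4.11 CPM in the WT libraries of day 7, and 228 ± 108 (knockout-labelled) and 187 ± 20.1 CPM (WT) at day 0 (SD, n = 3 each). Its log2 change was -2.37 in the libraries labelled knockout (adjusted p = 0.000701 by edgeR) and -3.02 in WT (adjusted p = 0.000139). Atf7ip2, a relative of the SETDB1 cofactor gene Atf7ip, fell by 1.65 in WT. In the libraries labelled knockout it averaged 4.92 ± 0.13 CPM at day 7 and 12.5 ± 1.54 CPM at day 0 (SD, n = 3 each).

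Of the 4 partners of G9a and GLP, Cdyl2, a chromodomain gene, had the largest fall, at 2.30 ± 0.93 CPM in the knockout-labelled and 2.11 ± 0.64 CPM in the WT libraries of day 7, and 46.3 ± 1.89 (knockout-labelled) and 42.3 ± 0.95 CPM (WT) at day 0 (SD, n = 3 each). Zfp644, a zinc finger partner of G9a, rose by a log2 change of 1.31 in the libraries labelled knockout and 1.44 in WT. Of 10 tested H3K9 demethylases, 3 rose and 5 fell in the libraries labelled knockout, and 5 rose and 4 fell in WT. Phf2 rose by 2.04 in the libraries labelled knockout and 2.45 in WT, and Kdm3a fell by 2.06 in the libraries labelled knockout. In WT Kdm3a averaged 31.4 ± 4.96 CPM at day 7 and 79.2 ± 30.9 CPM at day 0 (SD, n = 3 each). The methyltransferase gene Prdm16 fell to 0 CPM in each knockout-labelled library of day 7 and 0.131 ± 0.121 CPM in WT at day 7, against 3.34 ± 3.61 (knockout-labelled) and 2.09 ± 1.93 CPM (WT) at day 0 (SD, n = 3 each), and its WT call was lost without the third WT library of day 0. Pphln1 of the HUSH complex, which acts with SETDB1, rose by 1.57 in the libraries labelled knockout and 1.64 in WT. The first call was lost without the second library of day 0 or the third of day 7, and the WT call without the third library of day 7.

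Genes whose products bind HP1 or assemble heterochromatin rose in 4 and fell in 3 of 9 cases in the libraries labelled knockout, and rose in 5 and fell in 3 in WT. Smchd1, which acts on the inactive X chromosome, rose by 1.38 in the libraries labelled knockout, at 94.7 ± 7.27 CPM at day 7 and 36.3 ± 6.53 CPM at day 0 (SD, n = 3 each). In WT it averaged 66.7 ± 10.4 CPM at day 7 and 29.5 ± 3.39 CPM at day 0 (SD, n = 3 each). Pogz, a zinc finger gene whose product binds HP1, was the only one of the 43 called between genotypes, at day 0, where 0.13% of all genes were called. It had 39.3 ± 12.7 CPM in the libraries labelled knockout and 14.1 ± 1.2 CPM in WT (SD, n = 3 each), a log2 difference of 1.47 (SE 0.22, adjusted p = 0.0396 by edgeR), and the call was lost without any 1 of 11 of the 12 libraries. In WT it rose over the 7 days by 1.70 (SE 0.22, adjusted p = 4.7e-05 by edgeR). In the libraries labelled knockout its change over the same days was 0.45 (SE 0.22, adjusted p = 0.0939) and did not pass. The difference between these changes, -1.25 (SE 0.31), did not pass by edgeR (adjusted p = 0.356). For this difference edgeR called 0 of 43, compared with 0.026% of all genes. Its unadjusted p was under 0.05 for 2 of 43, compared with 6.86% of all genes. DESeq2 called 1 of 42, which was Pogz, compared with 0.672%. The next smallest p were those of Kdm1a and Wiz, with differences of -0.32 and -0.36. Between genotypes at day 7, 0 of 43 passed by edgeR, compared with 0.026% of all genes, and DESeq2 called 0, compared with 0.656%. An unadjusted edgeR p under 0.05 was found for 4 of 43, compared with 8.18% of all genes. The smallest p of day 7 were those of Smchd1, Mecom and Kdm4c, with log2 differences of 0.51, -0.94 and 0.46. Of 10 listed germline genes, 9 were tested and all 9 fell in both genotypes, to a sum of 0.0968 to 0.608 CPM in the knockout-labelled and 0.465 to 0.668 CPM in the WT libraries of day 7, against 32.2 to 36.6 (knockout-labelled) and 33.4 to 44.4 CPM (WT) at day 0. Of 13 replication and cell cycle genes, 8 fell and 1 rose in the libraries labelled knockout, and 7 fell and 3 rose in WT. The part of these genes in the changes of the 10 genes was not tested. The background for the germline and cell cycle lists is 31.1% of all genes rising and 32.3% falling in the libraries labelled knockout. In WT it is 32.9% rising and 32.1% falling.

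Per length, the order of the members kept Trim28 first and changed most for Suv39h1. At day 7 Trim28, Suv39h1, Ehmt2 and Cbx1 were the 4 highest in both genotypes, with no overlap between neighbours, and Setdb1 overlapped Ehmt1, and Atrx overlapped Suv39h2. At day 0 Trim28 stood apart from Ehmt2, which overlapped Cbx1, in both genotypes. The genes most like Suv39h1 over the 12 libraries, by Pearson r of log2 CPM among 10216 candidates, were Pdzrn3 (r of 0.999), Tmcc2 and Tbx2 (0.998 each), and those most like Trim28 were Hmces, Ucp2 and Cndp2 (0.998 each). These r describe the difference between the days that the libraries share.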

How the data were processed

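The submitters' processing notes list HISAT2 2.1.0 and StringTie 1.3.3, with no settings, among their tools. The authors deposited expected counts (whole numbers, not normalized) per gene and transcript for all reads, and per gene and transcript divided into genome 1, genome 2 and unassigned reads. Strand use and annotation release were not given in the sources used here; 99.5% of gene identifiers matched the GENCODE annotation of GRCm38 used for coordinates. From 29.7 to 32.0% of a library's gene reads could be given to a genome.

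All 12 libraries entered 1 fit per gene with edgeR 4.0.16 in R 4.3.3 (filterByExpr by group, TMM, quasi-likelihood test, 1 coefficient per group, Benjamini-Hochberg over 19235 genes, threshold 0.05); each SE is derived from the log2 change and its F statistic. DESeq2 1.42.0 was an alternative. Allelic balance was tested by the same method on genome 1 and genome 2 columns with a block per library, over 9344 genes with at least 20 such reads in every library. CPM are TMM-scaled, TPM come from transcript counts and annotated lengths, and intervals are 95% Wilson intervals that cover counting error only, since PCR reads are not independent molecules. Both tests were also run on simulated counts. For the gene test few genes were changed there, unlike between the days here. That run does not show how the gene test performs in the day comparisons. No replicate repeated another: within groups, libraries exceeded sampling noise (chi-square per degree of freedom 24.6 to 60.7).

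The 10 genes, the lists and the tests were chosen with earlier results of these data known. Named genes of the wider list are, per comparison, the 4 largest rises and 4 largest falls that passed, or the 3 smallest p where none passed. The treatment label (LIF or none), which runs by replicate and genotype and not by day, was not used for grouping. Alternatives were other size factors, no low-count filter, the replicate number as a block, only the 6 libraries compared, each library left out, and other read minimums. Chosen after the data were seen were the summed allele-divided counts, resolved reads alone, the treatment label as a covariate, and Suv39h1 with its antisense gene.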

Additional observations from a re-analysis of the deposited data

How the results depend on the processing

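Same-numbered libraries of day 0 and day 7 showed little shared deviation from their group means. The r was -0.028, -0.00096 and -0.0044 in the libraries labelled knockout and -0.061, 0.022 and -0.049 in WT. With 3 libraries per group, this cannot decide whether a number marks a shared clone or culture. With the replicate block, 5 members were called over the 7 days in the libraries labelled knockout and 7 in WT, the 1 wider-list call between genotypes at day 0 was lost (0), and Cbx3 in the libraries labelled knockout was -0.024; with genotype and replicate block the member counts were 5 (knockout-labelled) and 7 (WT). With 1 library left out, calls over the 7 days ran from 5 to 6 members in the libraries labelled knockout and 5 to 7 in WT, from 30 to 36 and 30 to 39 genes of the wider list, and from 1 to 1 and 1 to 2 members for allelic balance. Between genotypes, left-out fits gave 0 members, and 0 to 1 wider-list genes at day 0. DESeq2 called 1 member between genotypes at day 0. The wider-list call at day 0 was also lost (0) with only the 6 libraries compared, with the summed allele-divided counts, with resolved reads alone and with the treatment label as a covariate. Resolved reads alone left 21 wider-list calls over time in each genotype, and 4 (knockout-labelled) and 5 (WT) member calls: Suv39h1 was lost in both genotypes, Cbx5 and Suv39h2 were lost in WT, and Cbx3 was gained in WT. Summed allele-divided counts gave 5 (knockout-labelled) and 6 (WT), with Suv39h2 lost in WT.

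Signs turned only for values that had not passed, except Suv39h1 over time in WT on resolved reads alone (-0.063); the cause was not tested. Between genotypes at day 7, Cbx1 was 0.012 with only the 6 libraries compared, Ehmt1 -0.050 and Suv39h2 0.040 with summed allele-divided counts, and Suv39h1 0.14 on resolved reads alone. At day 0, Cbx5 was -0.036 with summed counts and -0.025 on resolved reads, where Ehmt2 was 0.023 and Suv39h2 -0.19. Cbx3 over time in the libraries labelled knockout was -0.0012 by DESeq2, -0.014 with RLE size factors and -0.0014 with only the 6 libraries compared. With 1 library left out, values between genotypes at day 7 ran from -0.086 to 0.021 for Cbx1 and -0.21 to 0.0060 for Suv39h2. At day 0 they ran from -0.020 to 0.73 for Cbx3, -0.044 to 0.050 for Cbx5, -0.084 to 0.0030 for Ehmt2, -0.044 to 0.22 for Setdb1 and -0.25 to 0.070 for Suv39h1. Over time, Cbx3 ran from -0.074 to 0.079 in the libraries labelled knockout and -0.16 to 0.60 in WT, and allelic balance from -0.55 to 0.33 for Suv39h2 in the libraries labelled knockout and -0.15 to 0.57 for Ehmt1 in WT. Few reads lie behind the allelic values of Suv39h1, 74 in 1 library, and none of the reads of Suv39h1-202 could be given to a genome.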
